A study of Homo sapiens with 10 samples.

Results

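The genes described here are 8 cytosolic aminoacyl-tRNA synthetases that work outside the multi-synthetase complex (GARS1, AARS1, CARS1, NARS1, SARS1, TARS1, WARS1 and HARS1) and 2 enzymes of amino acid synthesis, ASNS and PHGDH. All 10 were found by gene symbol among the 14884 genes named in the expression table, and a gene with several rows was represented by the row of highest mean over all clones. They were measured in PC-3, an established human line that was grown from a bone metastasis of prostate cancer. PC-3 cells had received a p-Lenti vector that carried either CENPU, a gene for a centromere protein, or no insert, and had been selected with blasticidin. There were 5 clones with CENPU, numbered 1, 4, 5, 7 and 13, and 5 clones with the empty vector, numbered 1 to 5 and called controls. Each clone gave total RNA for 1 Affymetrix array, and each is the progeny of its own isolate, so both groups share the vector backbone, the selection and the cloning step. The comparison asked whether the synthetases differed between the groups and whether they moved with ASNS and PHGDH from clone to clone. ASNS and PHGDH were selected because earlier results on these clones showed them higher with CENPU, so their group differences are given as descriptions without a test. The synthetases were put forward with results of these clones in view as well, so their count of passing genes is read only beside the share of all genes.

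An aminoacyl-tRNA synthetase joins an amino acid to its tRNA, the step that sets which amino acid a codon brings to the ribosome. In mammalian cells several of these enzymes are held in a multi-synthetase complex, whereas the others act free of it. When charged tRNA runs short, the kinase GCN2 phosphorylates the initiation factor eIF2, general translation falls, and the transcription factor ATF4 is made. ATF4 is known to induce ASNS, PHGDH and many cytosolic synthetase genes through a C/EBP-ATF response element, and this programme is often active in cancer cells.

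The core letters of that element, TGATGNAA, were looked for on both strands of the RefSeq promoter windows, which run from 250 bases before to 50 bases after a gene start on GRCh38.p14. The core lay in the windows of 6 of the 10 genes, against 3.62% of all 35116 windows and 4.46% of the 27305 genes that have one. The 5 synthetases with a match and ASNS are printed 5′ to 3′ on the strand of the gene, to show the letters that they share; the core lay on the gene's strand in ASNS and NARS1 and on the opposite strand in the other 4. Capitals mark the match, which reads TTNCATCA where it lies on the opposite strand, and in ASNS also GTTACA, a second element known from this promoter.
ASNS, chr7:97872439-97872488, minus strand: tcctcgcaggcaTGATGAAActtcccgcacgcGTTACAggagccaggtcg
GARS1, chr7:30594834-30594863, plus strand: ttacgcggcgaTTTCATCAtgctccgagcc
AARS1, chr16:70289675-70289704, minus strand: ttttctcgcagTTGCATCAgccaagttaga
CARS1, chr11:3057407-3057436, minus strand: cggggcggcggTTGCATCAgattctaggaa
TARS1, chr5:33440956-33440985, plus strand: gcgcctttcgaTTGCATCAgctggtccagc
NARS1, chr18:57621804-57621833, minus strand: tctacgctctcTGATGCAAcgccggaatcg

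The match began 68 bases before a start of ASNS, 33 before the downstream start of GARS1, 187 before the start of AARS1 and 2 before the upstream start of CARS1. It began 2 bases after a downstream start of TARS1 and 14 after the start of NARS1. AARS1, CARS1, TARS1 and NARS1 carried the stricter form TGATGCAA. It lay in 4 of the 10 genes, against 0.866% of all windows and 1.08% of all genes that have one. The windows of SARS1, WARS1, HARS1 and PHGDH did not hold TGATGNAA, which says only that these letters are not in those windows. GTTACA was found in 1 of the 10 genes, ASNS, against 6.66% of all windows and 8.07% of all genes that have one, a count near the background. A match is a description of the letters and was not tested as a binding site.

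**Figure D1:**
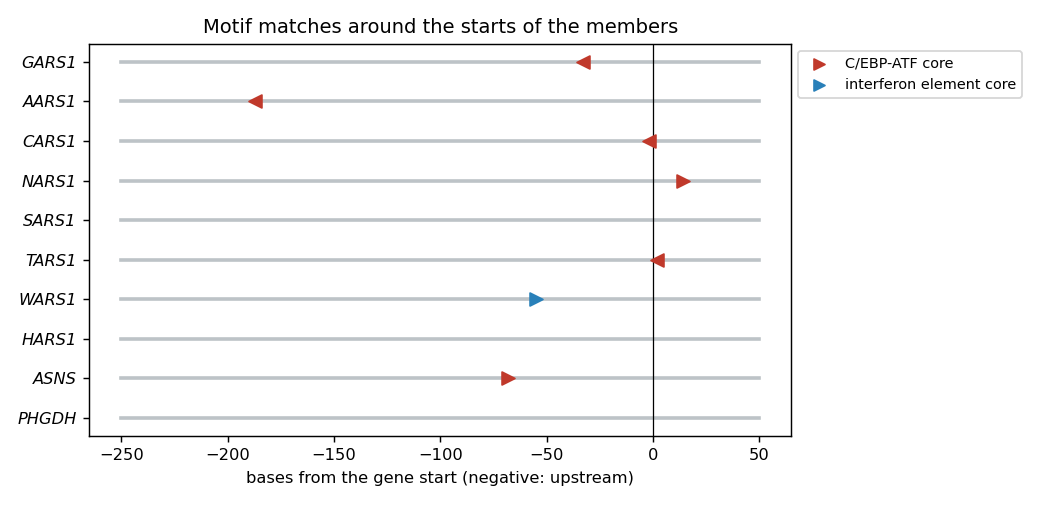
Position of motif matches in the promoter windows of the 10 genes, in bases from the gene start, where negative values are upstream. Red triangles mark the C/EBP-ATF core and the blue triangle the interferon element core of WARS1, pointing right for the gene's strand and left for the opposite strand; 6 of the 10 genes carry a red mark, and SARS1, HARS1 and PHGDH carry neither.

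The values are log2 expression values, so a difference of 1 is a doubling. CENPU itself averaged 9.34 ± 0.43 (SD, n = 5) in the CENPU clones and 6.26 ± 0.29 (SD, n = 5) in the controls, and no clone went against its label. Array medians lay between 4.62 and 4.76, and correlations between arrays over the named rows between 0.916 and 0.993. KRT18 and KRT19, keratins of epithelial cells, had group means between 10.53 and 10.87. Other markers were lower: the means of the 8 measured epithelial and PC-3 markers over all clones ran from 6.43 for EPCAM to 11.2 for EZR. The keratins KRT8 and KRT7 averaged 6.75 and 7.10. Of these 8 markers only VIM passed (0.74 higher, limma adjusted p = 0.00446). None of the 3 measured leukocyte, endothelial and fibroblast markers (CD14, PECAM1 and DCN) passed, and their means over all clones lay between 2.77 and 5.24. The 3 measured androgen-pathway genes, KLK3, KLK2 and FOLH1, which PC-3 is known to express little, did not pass either. In bulk RNA a higher level in every cell and a larger share of cells with a high level cannot be told apart.

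In the CENPU clones 6 of the 8 free-standing synthetases rose and 0 fell: GARS1, TARS1, CARS1, WARS1, SARS1 and AARS1, by 1.46-fold to 2.96-fold. NARS1 and HARS1 did not pass. A gene passed at a limma adjusted p under 0.05, with Benjamini-Hochberg adjustment over all 16098 named rows. Of all 14884 genes 10.1% passed in either direction and 5.31% passed as higher in the CENPU clones. Among the 6960 genes with a mean over 6, where all 10 genes described here lie, 8.68% passed as higher. The median log2 difference of the 8 synthetases was 0.73, against -0.02 over all genes. The values of the CENPU and control clones did not overlap in the same 6 synthetases, and 4.54% of all genes were separated in this way with CENPU higher.

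GARS1, the glycyl-tRNA synthetase, whose dominant mutations cause a peripheral neuropathy, had the largest difference of the 8. The CENPU clones 1, 4, 5, 7 and 13 stood at 8.78, 9.35, 9.42, 9.58 and 10.02, and the control clones 1 to 5 at 8.45, 7.06, 7.86, 8.02 and 7.91. CENPU 1 was the lowest of its group and control 1 the highest of the other, and they were 0.32 apart. The means were 9.43 ± 0.45 and 7.86 ± 0.51 (SD, n = 5 each), a log2 difference of 1.57 (SE 0.26, limma adjusted p = 0.00576) or 2.96-fold. By signed difference, counted from the largest rise in the CENPU clones, GARS1 ranked 25 among all genes.

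TARS1, the threonyl-tRNA synthetase, stood at 9.07, 9.28, 10.04, 10.76 and 10.51 in the same order of CENPU clones and at 8.95, 7.63, 8.88, 8.70 and 8.56 in the controls. CENPU 1 lay 0.12 above control 1, while CENPU 5, 7 and 13 were more than 1 unit above any control. The difference was 1.39 (SE 0.35, limma adjusted p = 0.0290), a 2.62-fold rise. This call was lost when CENPU 5, CENPU 7, CENPU 13, control 2, control 4 or control 5 was left out, with adjusted p values up to 0.0674.

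CARS1, the cysteinyl-tRNA synthetase, was at 8.04, 8.43, 8.25, 8.17 and 8.27 in the CENPU clones and at 7.84, 7.03, 7.59, 7.41 and 7.27 in the controls. All CENPU clones lay above 8 and all controls below it. The rise of 0.81 (SE 0.14, limma adjusted p = 0.00813) was 1.75-fold.

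SARS1, the seryl-tRNA synthetase, which charges the product of the serine pathway that PHGDH opens, varied little among the CENPU clones. Its values there were 8.95, 9.16, 9.08, 9.13 and 9.18, and in the controls 8.72, 8.25, 8.65, 8.43 and 8.33. Every CENPU clone exceeded every control, and the difference was 0.62 (SE 0.11, limma adjusted p = 0.00705) or 1.54-fold.

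AARS1, the alanyl-tRNA synthetase, was at 10.73, 11.23, 11.24, 11.03 and 11.14 in the CENPU clones against 10.70, 10.28, 10.59, 10.66 and 10.42 in the controls. The groups were separate, but CENPU 1 and control 1 were only 0.03 apart. The rise of 0.54 (SE 0.12, limma adjusted p = 0.0209) was 1.46-fold, and it missed the threshold without CENPU 5 (adjusted p = 0.05001), control 2 (0.0517) or control 5 (0.0517).

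WARS1, the tryptophanyl-tRNA synthetase, is also induced by interferon gamma through a second promoter. It stood at 6.68, 7.10, 7.35, 6.96 and 7.09 in the CENPU clones and at 6.44, 6.02, 6.62, 6.40 and 6.43 in the controls. CENPU 1 lay just above control 3, and the groups did not overlap. The difference was 0.65 (SE 0.14, limma adjusted p = 0.0174), 1.57-fold. WARS1 has a second, dim row with a mean of 4.57, in which the difference was 0.03 (limma adjusted p = 0.868). With both rows averaged the difference was 0.34 (adjusted p = 0.0549).

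NARS1, the asparaginyl-tRNA synthetase, uses the amino acid that ASNS makes. It reached 9.02, 9.58, 10.20, 10.45 and 11.06 in the CENPU clones and 9.60, 7.47, 8.999, 9.24 and 9.20 in the controls. Control 1 exceeded CENPU 1 and CENPU 4, and control 2 stood far below all other clones. The difference of 1.16 (SE 0.43, 95% interval 0.22 to 2.10) did not pass, with a limma adjusted p of 0.108. Without CENPU 1 it was 1.42 and passed (limma adjusted p = 0.0395), the only 1 of 10 fits with 1 clone left out that did. In the others the difference went down to 0.80 (without control 2) and the adjusted p up to 0.225 (without CENPU 13).

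HARS1, the histidyl-tRNA synthetase, lay in a narrow range, at 7.11, 7.16, 7.18, 6.96 and 7.00 in the CENPU clones and 7.19, 6.82, 6.98, 6.80 and 6.83 in the controls. Control 1 was the highest of all 10 clones, so the groups overlapped. The difference was 0.16 (SE 0.099, 95% interval -0.06 to 0.37, limma adjusted p = 0.319).

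**Figure D2:**
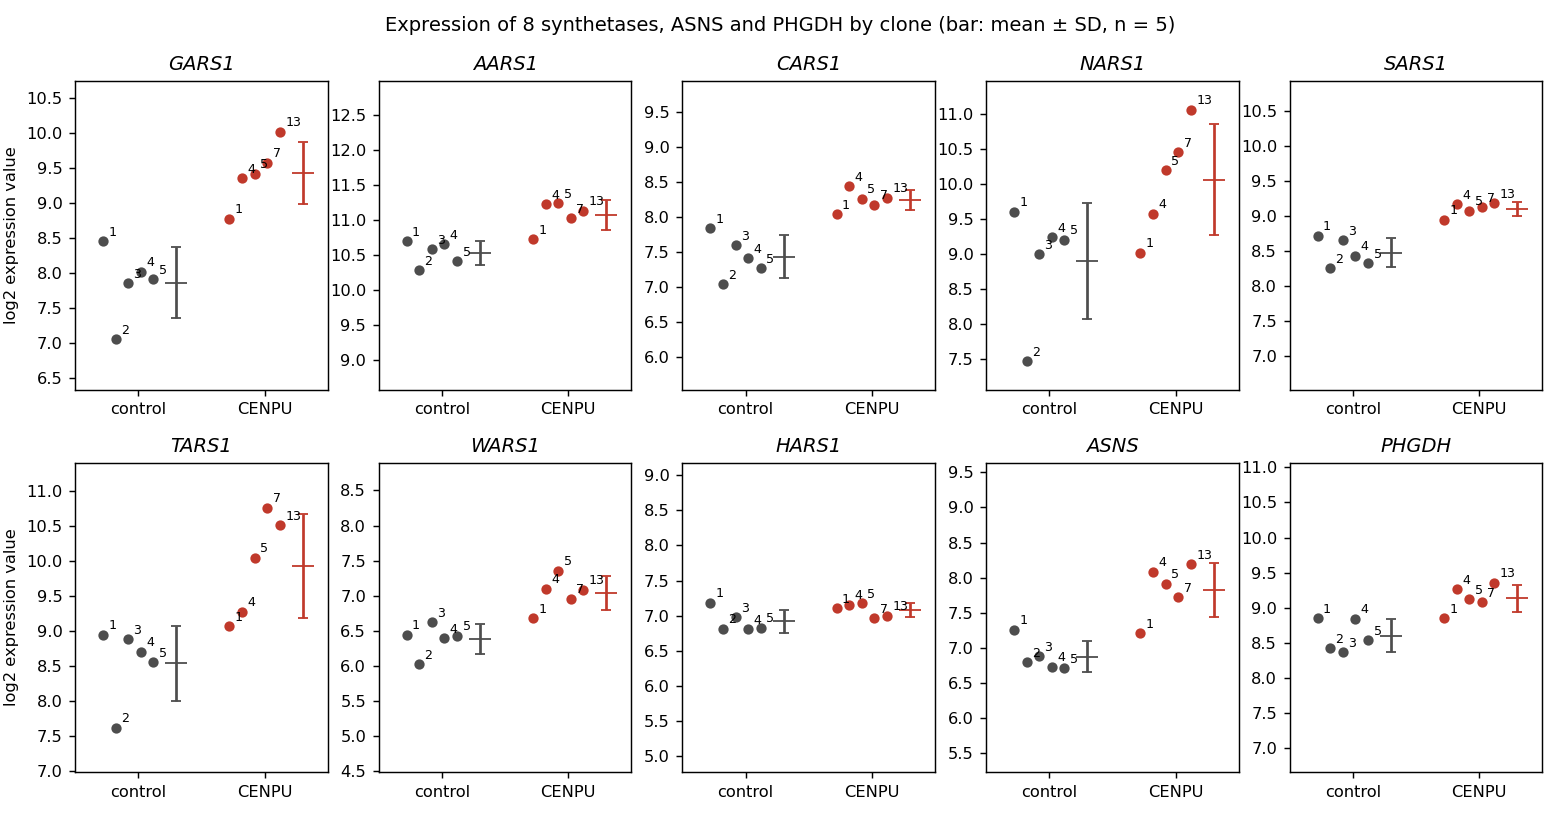
Log2 expression of the 8 synthetases, ASNS and PHGDH in each clone, with the clone number beside its point and the group mean ± SD (n = 5) as a bar; every panel spans the same number of log2 units. GARS1 runs from 7.06 to 8.45 in the controls and from 8.78 to 10.02 in the CENPU clones, whereas NARS1, HARS1, ASNS and PHGDH overlap between the groups.

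ASNS, which converts aspartate and glutamine to asparagine and glutamate, was at 7.21, 8.08, 7.91, 7.72 and 8.19 in CENPU clones 1, 4, 5, 7 and 13 and at 7.26, 6.79, 6.88, 6.73 and 6.71 in control clones 1 to 5. CENPU 1 fell just below control 1, and the other 4 CENPU clones lay above all controls. The means were 7.82 ± 0.39 and 6.87 ± 0.22 (SD, n = 5 each), a difference of 0.95 (SE 0.18) or 1.93-fold.

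PHGDH, which carries out the first step of serine synthesis from a glycolytic intermediate, was at 8.85, 9.26, 9.12, 9.08 and 9.35 in the CENPU clones and at 8.85, 8.42, 8.37, 8.84 and 8.54 in the controls. CENPU 1, control 1 and control 4 were nearly level, and the other CENPU clones were higher than every control. The means were 9.13 ± 0.19 and 8.60 ± 0.23 (SD, n = 5 each), a difference of 0.53 (SE 0.13) or 1.44-fold.

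The same clones tended to be at the ends of their groups in gene after gene. CENPU 1 was the lowest CENPU clone in 7 of the 8 synthetases and in both ASNS and PHGDH, against 19.8% of all genes and 26.0% of genes with a mean over 6. Control 2 was the lowest control in 7 of the 8 synthetases but in neither ASNS nor PHGDH (32.0% of all genes and 42.1% of those with a mean over 6). Control 1 was the highest control in 7 of the 8 synthetases, all except WARS1, and in both enzymes (21.2% and 28.9%). HARS1 did not follow the first pattern, since its lowest CENPU clone was 7.

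Whether the synthetases went with ASNS and PHGDH apart from the group difference was measured over the 10 clones on deviations from the group means. All 17 correlations, of 8 synthetases with each enzyme and of the enzymes with each other, were positive. Pearson's r ran from 0.17 for HARS1 with PHGDH to 0.78 for AARS1 with ASNS. An exact permutation test within groups used all 14400 arrangements, which can give no p below 6.9e-05, with Benjamini-Hochberg adjustment over the 17 pairs. It passed 1 pair, SARS1 with ASNS (r = 0.70, rho = 0.77, p = 0.00257, adjusted p = 0.0437, permutation p of rho 0.0124), and 8 pairs had an unadjusted p under 0.05.

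With ASNS the correlation was 0.78 for AARS1 (rho = 0.76, permutation p = 0.0143, adjusted p = 0.0608), 0.70 for GARS1 (rho = 0.38, permutation p = 0.0358, adjusted p = 0.0869) and 0.68 for CARS1 (rho = 0.81, permutation p = 0.00694, adjusted p = 0.0590). The others were WARS1 at 0.57, NARS1 at 0.56, TARS1 at 0.43 and HARS1 at 0.41, none with an unadjusted p under 0.05. Thus 4 of the 8 synthetases reached an unadjusted p under 0.05 with ASNS, all positive, where 1.75% of the 14883 other genes did so with a positive sign. These 4 also correlated with each other over the same clones, at r of 0.74 to 0.94, so they are not 4 separate results. Over all 14883 genes none passed after adjustment, and 261 positive and 637 negative correlations had an unadjusted p under 0.05. AARS1 ranked 45 among 6418 protein-coding genes with a mean over 6 by correlation with ASNS, and SARS1 ranked 152. The ranks of the other synthetases were 156 (GARS1), 177 (CARS1), 595 (WARS1), 652 (NARS1), 1560 (TARS1) and 1750 (HARS1). CENPU 1 and control 1 were the clones farthest from the median of ASNS deviations. Without both, r with ASNS lay between -0.27 for TARS1 and 0.40 for CARS1 and SARS1, over a narrower range of ASNS, so the size of the relation rested on these clones together. With only CENPU 1 left out the median r of the 17 pairs was 0.53, and with only control 1 left out it was 0.56.

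With PHGDH the correlation was 0.77 for GARS1 (rho = 0.73, permutation p = 0.0126, adjusted p = 0.0608), 0.74 for AARS1 (rho = 0.82, permutation p = 0.0296, adjusted p = 0.0838) and 0.66 for NARS1 (rho = 0.71, permutation p = 0.0463, adjusted p = 0.0983). No pair with PHGDH passed after adjustment. The 3 of 8 synthetases with an unadjusted p under 0.05 compare with 1.38% of the other genes, which reached it with a positive sign. These 3 also correlated with each other, at r of 0.67 to 0.97, so they are not 3 separate results. Without control 1 and control 4, the clones farthest from the median here, r was still 0.70 for GARS1, 0.64 for AARS1 and 0.57 for NARS1, and -0.23 for HARS1. ASNS and PHGDH correlated with each other at 0.70 (rho = 0.61, permutation p = 0.0239, adjusted p = 0.0812), and at 0.25 without CENPU 1 and control 1.

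Some synthetases followed each other closely from clone to clone. Of their 28 pairs, looked at after the data had been seen, 8 passed the exact permutation test with adjustment over the 28 pairs. The share of pairs of other genes that would pass was not measured, so this count is not shown to be particular to synthetases. GARS1 and NARS1 had the highest correlation (r = 0.97, rho = 0.96, permutation p = 6.9e-05, adjusted p = 0.00194, the smallest p the arrangements allow), although only GARS1 passed between the groups. NARS1 with TARS1 (r = 0.91, adjusted permutation p = 0.0210) and GARS1 with TARS1 (0.84, 0.0210) completed a trio. CARS1 and SARS1 formed another close pair (r = 0.94, adjusted permutation p = 0.0126), each also above 0.70 with AARS1 (0.81 and 0.74). HARS1 did not pass with any other synthetase, and its r with TARS1 was -0.0033.

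**Figure D3:**
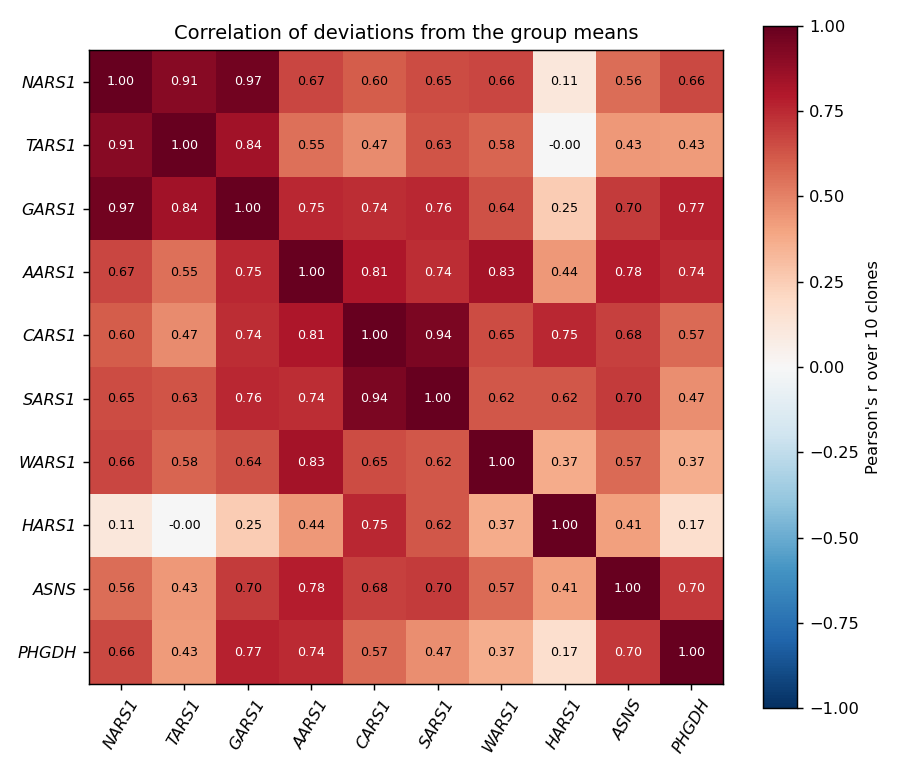
Pearson's r between the 10 genes over the 10 clones, computed on deviations from the group means, with red for positive and blue for negative values. NARS1, TARS1 and GARS1 form a block between 0.84 and 0.97, CARS1 and SARS1 stand at 0.94, and HARS1 holds the lowest value, with TARS1.

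A clone-wide trend went most closely with that trio. In each clone, Spearman's correlation was taken across 11916 protein-coding genes between the genomic span of a gene and its deviation from the mean over all clones, which gave -0.16, -0.036, 0.20, 0.32 and 0.36 in CENPU clones 1, 4, 5, 7 and 13 and -0.093, -0.36, -0.16, -0.28 and -0.16 in control clones 1 to 5. The trend thus moved with the groups as well: it was negative in all 5 controls and positive in 3 of the 5 CENPU clones, and its part in the group differences cannot be read from the correlations within groups. Over the 10 clones, after removal of group means, it correlated with TARS1 at 0.92 (rho = 0.89), NARS1 at 0.86 (rho = 0.84) and GARS1 at 0.80 (rho = 0.75). Each of these had an adjusted p of 0.00394 in the exact permutation test over 10 genes, and r of at least 0.82 without CENPU 1 and CENPU 4. The trend was taken from 11916 protein-coding genes, and the share of them that correlate with it as strongly was not measured. The correlations are therefore not shown to be particular to these genes. ASNS stood at 0.60 (adjusted permutation p = 0.228), PHGDH at 0.42 (0.251), and HARS1 at -0.01 (0.982). The other synthetases were WARS1 at 0.56 (0.228), SARS1 at 0.55 (0.0877), AARS1 at 0.50 (0.243) and CARS1 at 0.38 (0.243). SARS1 had an unadjusted permutation p of 0.0351. Without CENPU 1 and CENPU 4, r was 0.75 for SARS1 and 0.71 for CARS1. For the others outside the trio it then lay between 0.32 (PHGDH) and 0.55 (ASNS). With the span trend removed from each array by a smooth fit, GARS1 differed between the groups by 1.499 (limma adjusted p = 0.00401), TARS1 by 1.37 (0.0248) and NARS1 by 1.17 (0.0951), and 6 of 8 synthetases passed. When the 3 clones with the most extreme trend values (control 2, CENPU 7 and CENPU 13) were left out, only GARS1 (1.12, limma adjusted p = 0.0165) and CARS1 (0.71, 0.0382) of the 8 passed. Over all genes the count of passing genes went down too, from 1504 to 470. In that fit TARS1 differed by 0.69 (adjusted p = 0.117) and NARS1 by 0.33 (0.540), while AARS1 (0.47, adjusted p = 0.118), SARS1 (0.53, 0.0548) and WARS1 (0.57, 0.0814) kept most of their size. Control 2 was also the lowest control in 7 of the 8 synthetases. CENPU 7 and CENPU 13 were the highest CENPU clones for TARS1 and NARS1. Smaller differences without these clones therefore cannot be tied to the trend.

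**Figure D4:**
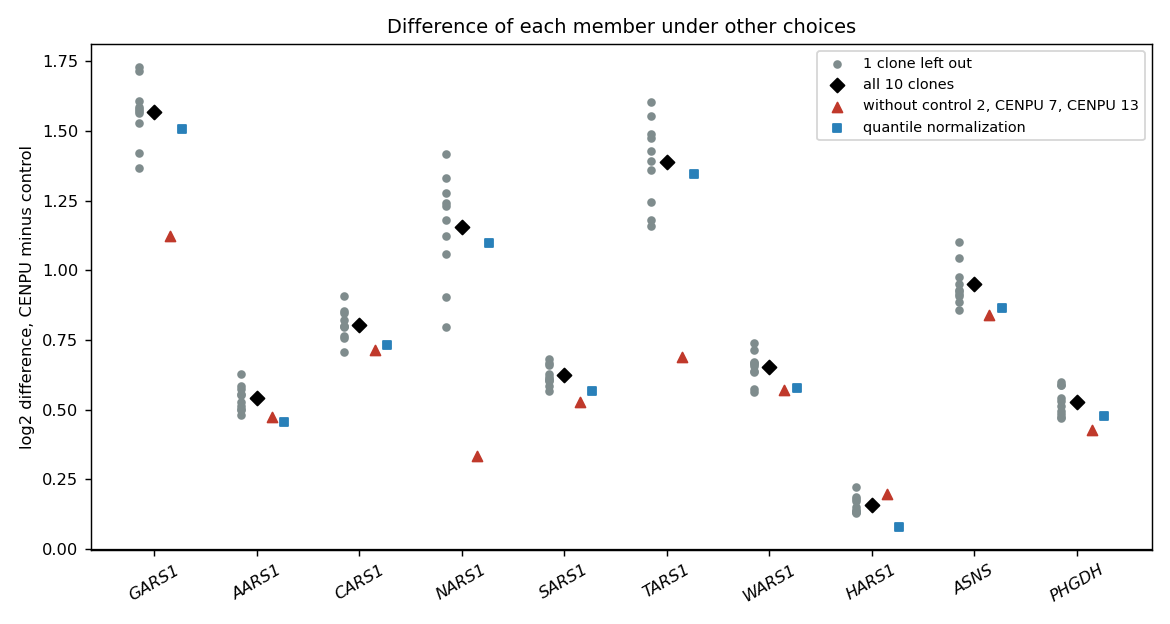
Log2 difference, CENPU minus control, of each of the 10 genes with all clones (diamonds), with 1 clone left out in turn (grey points), without control 2, CENPU 7 and CENPU 13 (triangles), and after quantile normalization (squares). No value is below 0; TARS1 falls from 1.39 to 0.69 and NARS1 from 1.16 to 0.33 without those 3 clones, whereas CARS1 goes from 0.81 to 0.71.

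The other measured synthetases were divided. Of the 8 measured parts of the multi-synthetase complex, of 11 listed, 4 rose and 0 fell, with a median difference of 0.79, where 5.31% of all genes and 8.68% of those with a mean over 6 rose. They were EPRS1, the glutamyl-prolyl enzyme (2.11, limma adjusted p = 0.00401), LARS1, the leucyl enzyme (1.62, 0.0107), RARS1, the arginyl enzyme (1.04, 0.0233), and KARS1, the lysyl enzyme (0.62, 0.0233). IARS1 for isoleucine (0.95, limma adjusted p = 0.0875), MARS1 for methionine (0.34, 0.0946), the scaffold protein AIMP1 (0.47, 0.298) and QARS1 for glutamine (-0.11, 0.463) did not pass. EPRS1 and LARS1 passed with any 1 clone left out and without control 2, CENPU 7 and CENPU 13. RARS1 did not pass without CENPU 7, CENPU 13 or control 4, nor KARS1 without CENPU 7 or control 4, and neither passed without the 3 clones together (adjusted p = 0.0826 and 0.0789). Free-standing enzymes beyond the 8 were measured in 3 of 5 cases. YARS1, the tyrosyl enzyme, rose by 0.53 (limma adjusted p = 0.0347), and this call was lost without CENPU 7, CENPU 13, control 2, control 3, control 4 or control 5, with the span trend removed (0.45, adjusted p = 0.0551), and without control 2, CENPU 7 and CENPU 13 together (0.46, adjusted p = 0.186). VARS1 for valine differed by -0.04 and TARS3, a paralogue of TARS1, by 0.24, and neither passed. The 17 mitochondrial synthetases listed had no row under their symbols among the named rows and were not analysed here. Of the complex genes with a promoter window, IARS1 and MARS1 held TGATGNAA, 2 of 7, and neither passed between the groups.

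Enzymes near ASNS and PHGDH in metabolism are given beside the 10.1% of all genes that passed in either direction, a share at which counts of 0 in lists this short are near the background. The list of serine, glycine and one-carbon enzymes had 6 of 9 genes measured, 0 of which passed, with a median difference of 0.14. PSPH, which completes serine synthesis, differed by 0.52 (limma adjusted p = 0.112), SHMT2, which makes glycine in mitochondria, by 0.19 (0.207), and SHMT1, its cytosolic counterpart, by -0.18 (0.191). PSAT1, the step between PHGDH and PSPH, differed by 0.29 (limma adjusted p = 0.707), with CENPU 1 at 7.81 and the other CENPU clones at 9.54, 10.27, 10.15 and 10.41, against 9.95, 8.70, 9.13, 9.50 and 9.43 in the controls. CENPU 1 was thus the lowest of all 10 clones for PSAT1, and without it the difference was 0.75 (limma adjusted p = 0.0609). Leaving out single clones gave values down to 0.098 (without CENPU 13), and without control 2, CENPU 7 and CENPU 13 together the difference was -0.30 (adjusted p = 0.803), so PSAT1 had no settled direction. Of the other enzymes of amino acid synthesis 10 of 18 were measured and 0 passed, with a median of -0.10. They ranged from ASS1 of the urea cycle (-0.36) to OAT, the ornithine aminotransferase (0.38). The 10 amino acid transporters listed had no row under their symbols among the named rows and were not analysed here.

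Of the list of ATF4 itself and its known stress targets, 14 of 21 genes were measured, of which 1 rose, 1 fell and 12 did not pass, with a median difference of -0.01. This count is near the 10.1% of all genes that passed in either direction. The gene that rose was CARS1, one of the 8 synthetases. ATF5, a transcription factor that is itself translated under eIF2 phosphorylation, fell by 0.70 (limma adjusted p = 0.0174), a call kept with any 1 clone left out but not without control 2, CENPU 7 and CENPU 13 (adjusted p = 0.0955). ATF4 mRNA differed by 0.14 (95% interval -0.07 to 0.35, limma adjusted p = 0.381), although ATF4 is regulated mainly in its translation, which arrays do not measure. Its target DDIT3, the CHOP factor, differed by 0.23 (adjusted p = 0.640), the pseudokinase TRIB3 by 0.23 (0.572), and the leucine sensor SESN2 by -0.17 (0.661). KLHL24 (0.88, adjusted p = 0.108), the lipoprotein receptor VLDLR (0.58, 0.144) and the growth factor VEGFA (-0.33, 0.144) had the smallest p among those that did not pass. Besides CARS1, ATF3 and JDP2 held TGATGNAA in their windows, 3 of 13 with a window.

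**Figure D5:**
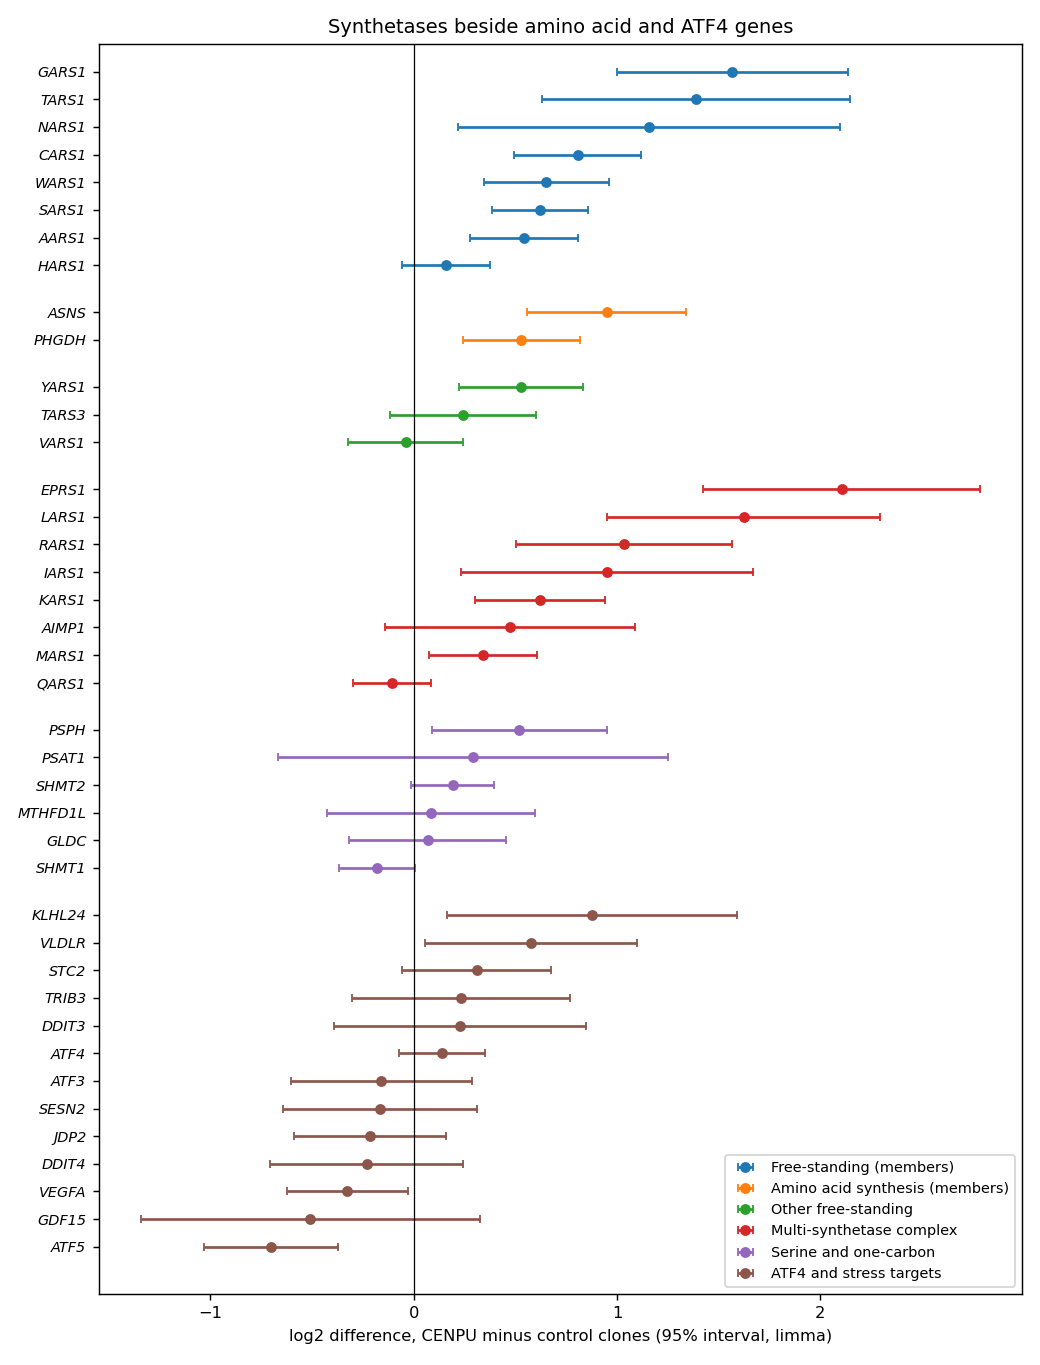
Log2 difference, CENPU minus control clones, with the 95% interval from limma, for the 8 synthetases, ASNS, PHGDH and 4 related groups of genes, coloured by group. Most synthetases lie to the right of 0, GARS1 at 1.57 and EPRS1 at 2.11, whereas the ATF4 and stress targets lie on both sides, from ATF5 at -0.70 to KLHL24 at 0.88.

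Of 15 genes listed for the eIF2 kinases and eIF2 machinery 6 were measured, and 2 rose, where 5.31% of all genes did. EIF2AK4, which encodes GCN2, the sensor of uncharged tRNA, rose by 0.86 (limma adjusted p = 0.0250), and EIF2AK1, the heme-regulated kinase, by 0.62 (0.0381). Both depended on single clones: EIF2AK4 did not pass without CENPU 5, CENPU 7, CENPU 13 or control 4, and EIF2AK1 did not pass without any one of these 4, nor without control 2 or control 3. Without control 2, CENPU 7 and CENPU 13 together the adjusted p was 0.0984 for EIF2AK4 and 0.152 for EIF2AK1, and with median centring that of EIF2AK1 was 0.0538. GCN1, the partner of GCN2 on ribosomes, differed by 0.36 (limma adjusted p = 0.0672), IMPACT, an inhibitor of that partnership, by 1.02 (0.133), and EIF2AK3, the kinase of the endoplasmic reticulum, by 0.61 (0.128). The double-stranded RNA kinase EIF2AK2 differed by -0.04 (limma adjusted p = 0.957).

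Interferon-gamma responsive genes were examined beside WARS1, and 4 of 12 were measured. None of them passed: GBP3, a guanylate-binding protein, differed by 0.47 (limma adjusted p = 0.171), the chemokine CXCL10 by -0.23 (0.0946), its relative CXCL9 by 0.12 (0.593) and the transcription factor IRF1 by -0.28 (0.264). CXCL10 and CXCL9 averaged only 3.07 and 3.32 over all clones, below the lowest array median of 4.62, so these 2 rows can show little. GBP3 and IRF1 averaged 6.02 and 6.99. The window of a second RefSeq start of WARS1 held a core of interferon-stimulated elements, GAAA and GAAA with 2 open bases between, 55 bases before that start. Whether that start is the one that interferon gamma uses was not tested, nor was the match tested as a binding site. It is printed on the gene's strand with the match in capitals, to show these letters.
WARS1, chr14:100375382-100375413, minus strand: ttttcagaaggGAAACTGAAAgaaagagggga

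These letters lay in 1 of the 10 genes, against 3.57% of all windows and 4.38% of all genes that have one.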

How the data were processed

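Per the labels' protocols, total RNA of 10 PC-3 clones was biotin-labelled and hybridised to 1-channel Affymetrix arrays. The authors deposited 53617 rows of log2 expression values, from 1.65 to 15.0; the submitters' processing notes name Partek and RMA, with no version. The log2 scale was read from the value range, and steps after RMA are not given in the sources used here. RMA equalises arrays, which would hide a shift of most genes, and background compresses differences of dim rows. Arrays have no read depth; the number of clones limits precision.

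A platform table named 16098 rows by 1 symbol, 0 by several and 37519 by none; all named rows matched RefSeq (GRCh38.p14) by gene ID, giving 14884 genes, 779 with several rows. Groups came from the labels, and clones are separate isolates of 1 line. All named rows were fitted with limma 3.58.1 (R 4.3.3; lmFit, eBayes, no covariate, Benjamini-Hochberg). Permutation tests were two-sided, in Python 3.11.15. The fit was tested on simulated data. Alternatives were other normalizations, filters, thresholds, variance models, array weights, row choices, a block by clone number, removal of the gene span trend and left-out clones; the share among genes with a mean over 6, the 28 synthetase pairs and the correlations with the span trend were added after seeing the data. The members and lists were chosen with earlier results of these data known. Named were all 10 members and, of the other lists, every gene that passed and up to 3 others by smallest p; a few further list genes were chosen after their values were seen.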

Additional observations from a re-analysis of the deposited data

Results flagged for a closer look

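In 9 of 150 groups of 5 clones 1 clone stood far from the other 4 by Dixon's gap criterion, which chance meets in about 1 of 20 groups. Control 2 was the low clone for NARS1 (7.47), IARS1 (8.13), ATF4 (8.87) and CD44 (5.89) and the high clone for PYCR3 (9.21). Without control 2 the difference of NARS1 was 0.80 and did not pass. The other 4 were KLK3 in control 3 (5.38, low), KRT8 in CENPU 4 (7.07, high), CXCL10 in CENPU 4 (3.03, high) and MTHFD1L in CENPU 5 (6.67, low). Their causes were not tested.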

How the results depend on the processing

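The median synthetase difference stayed between 0.55 and 0.80, that of ASNS between 0.81 and 1.10 and that of PHGDH between 0.33 and 0.60, and no member's difference reversed under any alternative run. Of the synthetases called, 6 with all clones, the count was 3 at an adjusted p under 0.01, 2 without control 2, CENPU 7 and CENPU 13, 4 to 7 with 1 clone left out, and 5 or 6 otherwise except under the block. Over all genes the count of 1504 became 253 at an adjusted p under 0.01, 2588 under 0.10, 470 without those 3 clones and 613 (without control 4) to 2471 (without CENPU 1) with 1 clone left out; it also fell by over 1.5 times without CENPU 5, CENPU 7, CENPU 13, control 2, control 3 or control 5. Without CENPU 4 the count was 1973, and without control 1 it was 1422. Fits with fewer clones have fewer degrees of freedom, but each fit with 1 clone left out loses the same number. The causes of the falls and of the rises were not tested. The 1 correlation with ASNS or PHGDH that passed became 0 with Spearman, quantile normalization, span trend removal or without those 3 clones, and 9 with median centring; with 1 clone left out it ranged from 0 to 9 (2 without control 2, 9 without control 3, 4 without control 4, 0 otherwise), so it depends on the scaling and on single clones. With clone number as a replicate block 0 synthetases and 55 genes passed. The labels do not say whether the 3 shared numbers pair the clones. Between clones of the same number, deviations from the group means over all genes correlated at r of -0.38, 0.10 and 0.02. Whether a shared number marks a shared batch was not tested. The block also leaves fewer clones to compare. Signal over background was not assessed, since scanner files were not used here.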

Other observations

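The genes most like ASNS over the 10 clones, by Pearson's r of deviations from group means among 6418 protein-coding genes with a mean over 6, were BBS4 (0.92), a part of the ciliary BBSome, GALK2 (0.92), a sugar kinase, USP3 (0.91), a deubiquitinase, LIMS1 (0.91), a focal adhesion adaptor, and CMTM8 (0.90). Those most like PHGDH were PRC1 (0.87), a spindle midzone protein, AHNAK (0.87), XYLB (0.86), UBOX5 (0.85) and ZNF436 (0.84). All 10 were picked as the highest of many, and none passed adjustment over all genes. GARS1 ranked 16 and AARS1 29 by likeness to PHGDH. The other synthetases ranked 117 (NARS1), 359 (CARS1), 911 (SARS1), 1201 (TARS1), 1708 (WARS1) and 2917 (HARS1). CMTM8 followed ASNS within the groups yet differed between them in the opposite direction, by -0.40 (limma adjusted p = 0.0385) against 0.95 for ASNS.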
